A study of Mus musculus with 4 samples.

Results

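Glycolysis and hypoxia genes were followed across the leukocytes of KPC tumours. The set held 33 of the 32285 genes in the count matrix, taken as a list of gene symbols, and all 33 were found. By role they comprised 2 transporters of glucose and lactate, 13 glycolytic enzymes and 3 genes that set glycolytic flux. A further 5 were grouped as oxygen-sensing genes, among them a histone demethylase and a collagen prolyl hydroxylase. The other 10 were genes of the hypoxic response, here called hypoxia effectors. Tumours were grown under the skin of male C57BL/6 mice, 8 to 10 weeks of age, from the KPC line of murine pancreatic cancer. The 4 groups were untreated, STING agonist, LTbR agonist and combination. The STING agonist was ADU-S100, a synthetic cyclic dinucleotide that activates the DNA-sensing adaptor STING, given once into the tumour at 2 µg. The LTbR agonist was 4H8, an agonistic antibody to the lymphotoxin-β receptor, given repeatedly into the peritoneum, and the combination group received both agents. On day 14 the 10 tumours of a group were pooled, digested with warm enzyme and sorted for live CD45+ cells, and droplet libraries were made with 5′ chemistry. Each group gave 1 library, and the study describes more than 1 such experiment without stating which these libraries come from. No value per animal exists, no test between groups was possible, and every interval below is a 95% interval of counting error only.

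Glycolysis splits glucose into pyruvate, which lactate dehydrogenase can turn into lactate for export. Cells short of oxygen rely on this route, because prolyl hydroxylases of the EGLN family then stop marking HIF-1α for destruction, and the stabilised factor switches on glucose transporters, most glycolytic enzymes, its own hydroxylases and genes of angiogenesis, mitophagy and lipid storage. In macrophages and neutrophils the same genes are also raised by inflammatory signals, and activated T and NK cells increase glycolysis as they proliferate.

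HIF binds DNA at a core of ACGTG or GCGTG. These letters were searched on both strands, so that CACGT and CACGC also counted, in windows running from 250 bases before to 50 bases after the starts of genes in RefSeq (GRCm38.p6). The palindrome CACGTG matched ACGTG on each strand. Of the 33 genes, 31 had at least 1 window, and Bnip3l and Ndrg1 had none. ACGTG lay in a window of 23 of the 31 genes (74.2%) against 21.8% of all 27025 genes with a window, and GCGTG in 21 (67.7%) against 35.2%. At least 1 of the 2 cores was present for 29 of the 31 genes (93.5%) and for 46.7% of all genes. Gpi1 and Tpi1 had neither in these windows. Per window, ACGTG occurred in 19.6%, GCGTG in 32.4% and either in 43.8% of all 32851 windows, and in 56.8%, 56.8% and 79.5% of the 44 windows of the 33 genes. These matches describe letters and are not measured binding sites. The 33 genes include known HIF targets by choice, and the shares of all genes were not matched for base composition. The stretch before the start is printed for 4 genes on which the results below turn: Pgk1 for the glycolytic enzymes, Egln3 and Bnip3 for the wide differences between macrophage subsets, and Ddit4 for the response to treatment. Each is given 5′ to 3′ on the strand of the gene and ends before the first annotated exon, with matches to either core in capitals. The windows lie at chrX:106186850-106187099 (plus strand, Pgk1), chr12:54203875-54204124 (minus strand, Egln3), chr7:138909520-138909756 (minus strand, Bnip3) and chr10:59951835-59952020 (minus strand, Ddit4).
Pgk1: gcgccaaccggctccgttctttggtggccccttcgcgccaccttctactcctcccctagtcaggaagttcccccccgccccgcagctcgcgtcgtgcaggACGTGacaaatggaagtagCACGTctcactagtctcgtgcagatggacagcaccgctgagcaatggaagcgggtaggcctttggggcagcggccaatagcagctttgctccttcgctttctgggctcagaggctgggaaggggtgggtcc
Egln3: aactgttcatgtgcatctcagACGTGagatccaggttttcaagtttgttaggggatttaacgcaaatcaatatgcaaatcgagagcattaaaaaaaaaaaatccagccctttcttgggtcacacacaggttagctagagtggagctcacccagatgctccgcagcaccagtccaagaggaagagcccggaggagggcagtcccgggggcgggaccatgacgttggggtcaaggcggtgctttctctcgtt
Bnip3: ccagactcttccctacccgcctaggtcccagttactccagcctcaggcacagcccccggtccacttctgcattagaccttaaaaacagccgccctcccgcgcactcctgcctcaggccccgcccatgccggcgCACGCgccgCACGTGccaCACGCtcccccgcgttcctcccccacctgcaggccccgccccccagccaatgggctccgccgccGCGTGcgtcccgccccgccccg
Ddit4: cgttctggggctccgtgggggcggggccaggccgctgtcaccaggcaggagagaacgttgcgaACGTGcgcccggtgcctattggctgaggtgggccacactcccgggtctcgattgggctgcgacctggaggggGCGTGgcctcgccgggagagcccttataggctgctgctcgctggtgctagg

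Among 24839 barcodes, 23011 cells passed the quality limits, with 3748 to 7147 cells and median depths of 5750 to 7094 unique molecular identifiers (UMIs) per library. Barcodes above the mitochondrial limit made up 2.71% of the untreated, 2.68% of the STING agonist, 5.99% of the LTbR agonist and 6.78% of the combination library, and 284 barcode sequences occurred in more than 1 library. Cells were clustered without the 33 genes and without the pathway lists named below, and clusters were named from marker genes. Macrophage- or monocyte-like cells numbered 3018, 1464, 2731 and 1617 in untreated, STING agonist, LTbR agonist and combination tumours, an order kept for every set of 4 values below. Csf1r, the receptor for the macrophage growth factor CSF1, stood at 530 to 677 CPM in these cells and at most at 9.84 CPM in CD8 and NK-like cells. In neutrophil-like cells it stood at 127 to 240 CPM. Neutrophil-like cells numbered 227, 304, 382 and 68, with S100a8 at 19300 CPM or more. Clusters that met no naming rule held 368, 107, 484 and 362 cells and were left out of the class levels. Of these clusters, 1 of 567 cells scored highest for the macrophage and monocyte list. Another, of 506 cells, was led by Ace, Adgre4 and Ear2. T-like cells were split by UMIs of Cd8a or Cd8b1 and of Cd4. The 667, 460, 806 and 656 T-like cells that fell in neither part were also left out. CD8 cells numbered 954, 583, 811 and 1020 and NK-like cells 497, 275, 726 and 382, with Ncr1, an NK receptor, at 255 to 354 CPM in the latter and at most at 1.11 CPM in CD8 cells. Levels are UMIs summed over the cells of a class and library and scaled to a common total (CPM). They are shares of the RNA of a class, compared here only within a gene or within the same sum of genes. They do not show the amount of RNA per cell, and a lower share can also come from more of other transcripts.

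The glycolytic and hypoxic programme was highest in macrophage- or monocyte-like cells. Of the 33 genes, 19 were highest there among 7 classes in all 4 libraries, where 5.89% of 11245 genes with enough counts were. Neutrophil-like cells were highest for 3 genes (background 6.39%), CD4 T-like cells for 2 (4.51%) and dendritic-like cells for 1 (5.93%). No gene was highest in all 4 libraries in CD8 cells (4.74%), NK-like cells (5.01%) or B- or plasma-like cells (3.02%). For the other 8 genes the highest class differed between libraries. Summed over the 10 hypoxia effectors, macrophage- or monocyte-like cells held 3606, 3538, 3769 and 3264 CPM. Neutrophil-like cells held 1801, 1174, 1700 and 1719 CPM, CD8 cells 1452, 1496, 1547 and 1813 CPM, and NK-like cells 1095, 1287, 1033 and 1243 CPM. No library of another of these classes reached the lowest macrophage value. Dendritic-like cells were nearest, with macrophage- or monocyte-like cells 1.37- to 1.79-fold above them on the scale of CPM + 10.

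**Figure D1:**
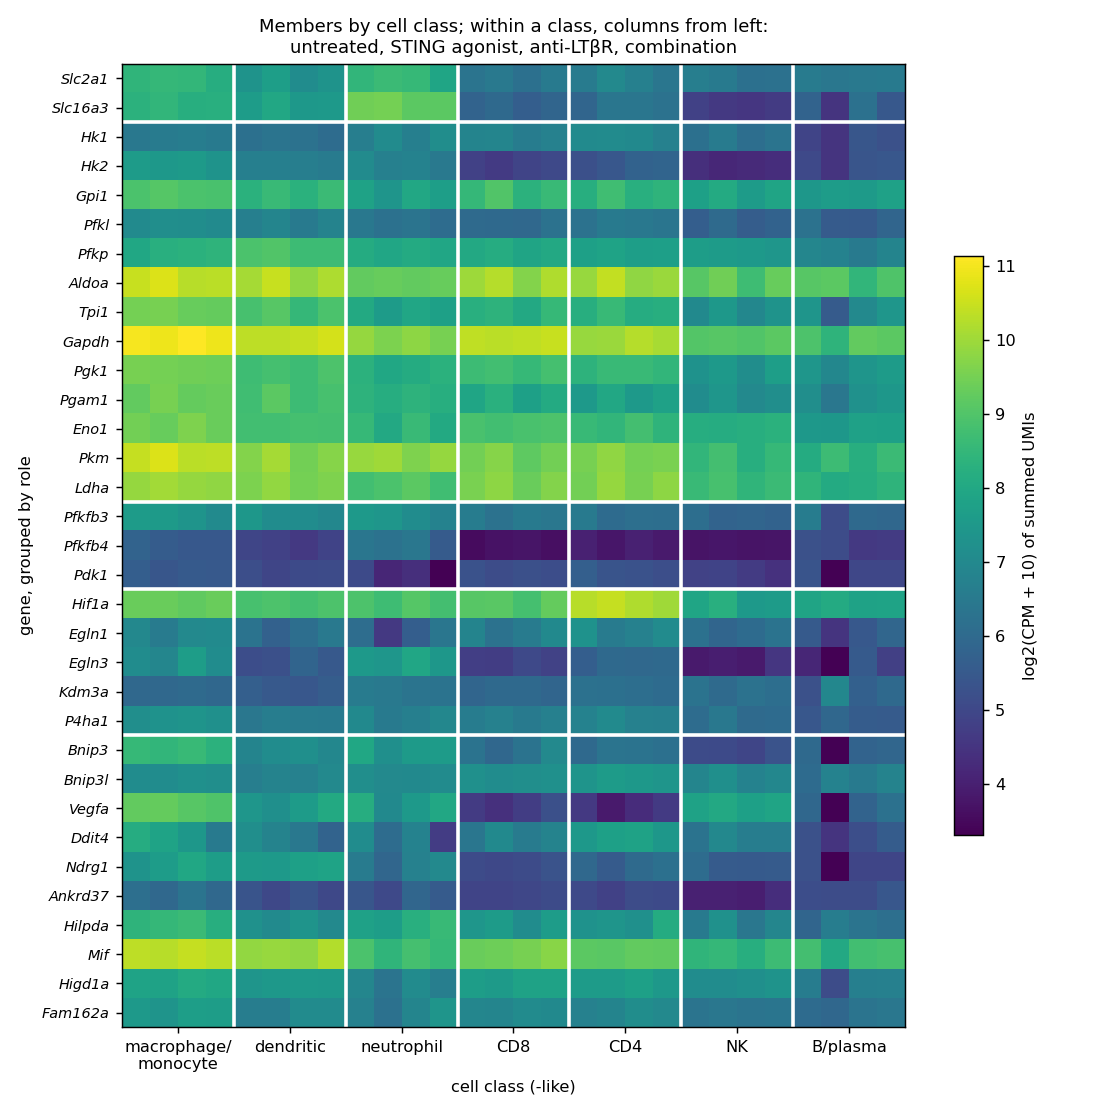
Levels of the 33 genes as colour, log2(CPM + 10), in 7 cell classes with 4 libraries each (columns within a class run in the order untreated, STING agonist, LTbR agonist, here written anti-LTβR, and combination) and genes grouped by role (rows). The brightest columns of most rows are those of macrophage- or monocyte-like cells, which are highest in all 4 libraries for 19 genes.

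Transport separated myeloid cells from lymphocytes. Slc2a1, the glucose transporter GLUT1, stood at 334, 358, 350 and 280 CPM in macrophage- or monocyte-like cells and at 340, 388, 364 and 229 CPM in neutrophil-like cells. CD8 cells held 70.7, 79.3, 64.6 and 81.1 CPM and NK-like cells 90.5, 80.5, 63.7 and 65.3 CPM. The intervals of macrophage- and neutrophil-like cells overlapped in each library, whereas macrophage- or monocyte-like cells were 3.18- to 4.83-fold above CD8 cells on the scale of CPM + 10, on which all folds and log2 ratios below are given. Slc16a3, the lactate exporter MCT4, was highest in neutrophil-like cells, at 687, 721, 568 and 559 CPM. Macrophage- or monocyte-like cells held 312, 341, 290 and 293 CPM, CD8 cells 40.5 to 54.1 CPM and NK-like cells 13.8 to 18.7 CPM. The exporter was thus 1.88- to 2.17-fold higher in neutrophil-like than in macrophage- or monocyte-like cells, and at least 5.23-fold higher in the latter than in CD8 cells.

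The glycolytic enzymes differed between classes in isoform as well as in level. Hexokinase, the enzyme that traps glucose in the cell, has the isoforms Hk1 and Hk2. Hk2, the inducible form, reached 185, 171, 181 and 152 CPM in macrophage- or monocyte-like cells and 15.2 to 22.8 CPM in CD8 cells. Hk1 stood at 76.7, 84.2, 89.1 and 83.5 CPM in the former and at 104, 107, 86.5 and 97.1 CPM in the latter. Hk2 was therefore 4.93- to 7.17-fold higher in macrophage- or monocyte-like cells while Hk1 was 0.76- to 1.03-fold, and in NK-like cells Hk2 stayed between 8.24 and 10.95 CPM. The phosphofructokinases, which commit sugar to glycolysis, also split by isoform. Pfkl was highest in macrophage- or monocyte-like cells (124, 134, 131 and 124 CPM). Pfkp was highest in dendritic-like cells, at 474, 507, 403 and 398 CPM against 243, 295, 309 and 328 CPM in macrophage- or monocyte-like cells.

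The other 9 enzymes, Gpi1, Aldoa, Tpi1, Gapdh, Pgk1, Pgam1, Eno1, Pkm and Ldha, which carry sugar phosphate from glucose-6-phosphate to lactate, were all highest in macrophage- or monocyte-like cells in all 4 libraries. Pgk1, which makes the first ATP of the pathway, stood there at 733, 711, 692 and 670 CPM, in CD8 cells at 401, 431, 366 and 449 CPM and in NK-like cells at 147, 173, 131 and 197 CPM. Ldha, which turns pyruvate into lactate, stood at 941, 1054, 949 and 906 CPM in macrophage- or monocyte-like cells and at 741, 894, 647 and 809 CPM in CD8 cells. For both genes macrophage- or monocyte-like cells were above CD8 cells in every library. Summed over the 13 enzymes, CD8 cells held 5956, 6652, 5364 and 6504 CPM against 9677, 10399, 9608 and 9183 CPM in macrophage- or monocyte-like cells, which were 1.41- to 1.79-fold higher. NK-like cells, at 2982, 3497, 2655 and 3267 CPM, lay 2.81- to 3.61-fold below macrophage- or monocyte-like cells. Dendritic-like cells lay 1.27- to 1.53-fold below macrophage- or monocyte-like cells.

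Of the genes that set glycolytic flux, Pfkfb3 and Pfkfb4 peaked in different classes. Pfkfb3, which makes the activator of phosphofructokinase, was highest in macrophage- or monocyte-like cells (186, 181, 154 and 125 CPM). Pfkfb4, a second enzyme of this kind, was highest in neutrophil-like cells (73.9, 66.8, 76.4 and 37.3 CPM) and at most at 3.53 CPM in CD8 cells. In the combination library its neutrophil-like value rested on 7 UMIs, and its interval included the macrophage value of 34.5 CPM. Pdk1, which blocks pyruvate entry into mitochondria, stood at 32.3 to 40.1 CPM in macrophage- or monocyte-like and 25.0 to 29.1 CPM in CD8 cells.

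Of the oxygen-sensing genes, Hif1a and Egln3 peaked in different classes. Hif1a, the oxygen-labile subunit of HIF, was highest in CD4 cells at 1259, 1388, 1177 and 1034 CPM. Macrophage- or monocyte-like cells held 647, 636, 590 and 637 CPM and NK-like cells 229, 293, 177 and 183 CPM. Its mRNA was thus 1.61- to 2.17-fold higher in CD4 cells, which held less of the summed hypoxia effectors than macrophage- or monocyte-like cells (by 1.99- to 2.45-fold). Egln3, a hydroxylase gene that HIF itself induces, was highest in neutrophil-like cells (174, 164, 239 and 165 CPM) and next in macrophage- or monocyte-like cells (128, 110, 192 and 130 CPM), with overlapping intervals in the combination library. It stood at 16.8 to 23.0 CPM in CD8 cells. Egln1, the main oxygen sensor among the hydroxylases, differed less between macrophage- or monocyte-like (86.0 to 124 CPM) and CD8 cells (66.8 to 121 CPM). It was 1.59- to 3.92-fold higher in macrophage- or monocyte-like than in neutrophil-like cells. Kdm3a, a histone demethylase, stood at 51.5 to 55.1 CPM in macrophage- or monocyte-like and 48.1 to 53.5 CPM in CD8 cells, and their intervals overlapped in every library. P4ha1, a collagen prolyl hydroxylase, was highest in macrophage- or monocyte-like cells (137, 148, 154 and 142 CPM).

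Among the effectors, Vegfa, the angiogenic growth factor, showed the sharpest contrast with T cells. It stood at 603, 617, 543 and 501 CPM in macrophage- or monocyte-like cells, at 15.6, 11.4, 16.9 and 27.2 CPM in CD8 cells and at 217, 251, 208 and 226 CPM in NK-like cells. At least 1 Vegfa UMI was found in 42.6% to 47.6% of NK-like cells (median depth 4140 to 5088 UMIs). In CD8 cells (5803 to 6863 UMIs) the share was 6.29% to 11.4%. With every cell thinned to 1000 UMIs, the shares were 15.2% to 19.3% of NK-like cells and 0.847% to 1.88% of CD8 cells. NK-like cells without any UMI of C1qa, C1qb, C1qc or Csf1r, genes of macrophages, held 222, 256, 209 and 224 CPM, close to the values of all NK-like cells. The part of free RNA in these values was not tested. Bnip3, a receptor for mitophagy, ranged from 369, 346, 371 and 315 CPM in macrophage- or monocyte-like cells to 68.6, 51.6, 67.9 and 118 CPM in CD8 cells and 24.7, 24.1, 20.8 and 29.9 CPM in NK-like cells. Its relative Bnip3l was nearly level, at 129 to 140 CPM in macrophage- or monocyte-like and 129 to 142 CPM in CD8 cells, and was highest in CD4 cells (154 to 185 CPM).

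The remaining effectors followed the macrophage pattern in part. Mif, a cytokine that retains macrophages, Higd1a and Fam162a, mitochondrial proteins, and Ankrd37, a small HIF target, were highest in macrophage- or monocyte-like cells in all 4 libraries. Mif stood there at 1288, 1252, 1380 and 1261 CPM and in CD8 cells at 643, 668, 725 and 842 CPM. Hilpda, which protects lipid droplets, was highest in macrophage- or monocyte-like cells in 3 libraries (332, 355 and 395 CPM) and in neutrophil-like cells in the combination (373 against 286 CPM). The neutrophil value rested on 70 UMIs, and its interval of 290 to 471 CPM overlapped the macrophage interval of 277 to 295 CPM. Ndrg1, a stress protein, was highest in macrophage- or monocyte-like or dendritic-like cells. Ddit4, which restrains the growth kinase mTORC1, was highest in macrophage- or monocyte-like cells of untreated and STING agonist tumours and in CD4 cells of the others.

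Within macrophage- or monocyte-like cells the genes varied more between subsets than the class did between treatments. These cells formed 15 subsets when clustered again without the 33 genes. Subset 7 and subset 4 were picked for what follows because they were most often the highest and the lowest, so their levels are a description. Subset 7 was highest of the 15 in all 4 libraries for 16 of the 33 genes, where 1.46% of 9224 genes were. Subset 4 was lowest in all 4 libraries for 9 genes, against 1.15%. Summed hypoxia effectors stood at 7690, 8389, 8005 and 7777 CPM in subset 7 and at 546, 509, 562 and 494 CPM in subset 4, a range of 13.9- to 16.2-fold. Subset 9 was second lowest in every library, at 993 to 1214 CPM, and subset 3, led by the interferon-induced genes Rsad2 and Cmpk2, was second highest in 3 libraries, at 4583 to 4982 CPM. Treatment moved the whole class from 3606 to at most 3769 and at least 3264 CPM. The class value pools all subsets while the subsets compared were picked as extremes, so these ranges are not like for like. A single subset could shift more, as given below for subset 8. Subset 7 made up 3.61%, 4.10%, 8.39% and 3.22% of the class.

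**Figure D2:**
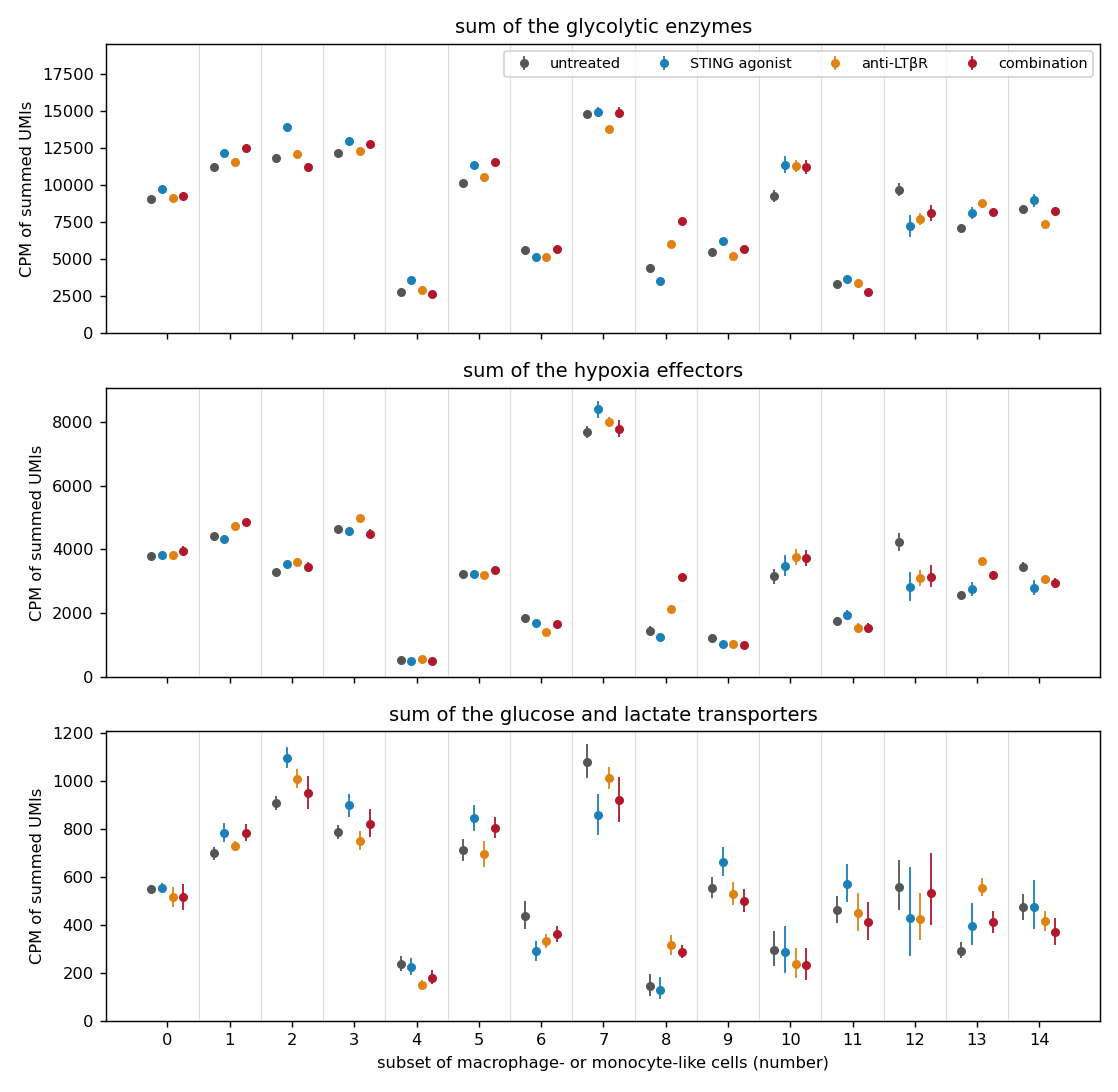
Summed CPM (y axis) of the glycolytic enzymes, the hypoxia effectors and the transporters in the 15 macrophage and monocyte subsets (x axis), 1 point per library with its 95% counting interval, coloured by treatment (anti-LTβR is the LTbR agonist). Subset 7 stands at 7690 to 8389 CPM and subset 4 at 494 to 562 CPM of summed hypoxia effectors in all 4 libraries.

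Subset 7 held the highest levels of most of the hypoxic response. Relative to the rest of the class, 20 of the 33 genes were higher by over 1.5-fold in all 4 libraries (background 3.31%) and 1, Pfkfb4, was lower (5.31%). Ndrg1 was higher by 3.43- to 4.61-fold, Egln3 by 3.08- to 4.55-fold, Hilpda by 2.96- to 3.61-fold, Bnip3 by 2.47- to 2.90-fold and Vegfa by 2.04- to 3.49-fold. The rest of the class was taken as the other 14 subsets of the same library. Vegfa reached 1203, 1374, 1279 and 1652 CPM there, and Egln3 426, 341, 525 and 566 CPM. The transporter Slc2a1 was also higher, at 796, 659, 820 and 734 CPM, but the exporter Slc16a3 was not, at 283, 198, 191 and 185 CPM. Hif1a mRNA, at 509, 612, 530 and 646 CPM, was 0.79- to 1.01-fold the level of the rest. Ddit4 stood 1.83- to 5.95-fold above the rest. Of the enzymes, Hk2, Gpi1, Aldoa, Tpi1 and Gapdh passed 1.5-fold in all 4 libraries, whereas Pkm stood between 0.98- and 1.23-fold.

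Subset 7 could not be named from the marker lists. Its leading genes were the heat shock genes Hspa1b, Hspa1a, Hspb1 and Hsph1 with Gpnmb, a lysosomal glycoprotein, Fnip2 and Hmox1, which degrades haem. Summed over 13 genes of dissociation and heat shock, it held 8681, 9370, 10295 and 7787 CPM, and only subset 12, whose cells were shallow, exceeded it, in the combination library (8001 CPM). These genes rise during warm enzymatic digestion, and their part in the levels of subset 7 was not tested. Over all 60 points of 15 subsets in 4 libraries, which share libraries and depth, their summed level had a Pearson r of 0.07 with the summed hypoxia effectors. That r describes all subsets together and cannot decide the question for subset 7, which was high for both sums. Subset 7 was of ordinary depth, with median UMIs of 6848 to 7686. Epithelial markers of tumour cells summed to at most 3.62 CPM in it. Of the macrophage markers, Csf1r stood at 453, 480, 339 and 344 CPM and C1qa, a complement subunit of macrophages, at 572, 723, 497 and 319 CPM, both below the values of the whole class in every library. Arg1, which breaks down arginine, stood there at 2425 to 3805 CPM and Inhba, an activin subunit, at 1273 to 2043 CPM.

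**Figure D3:**
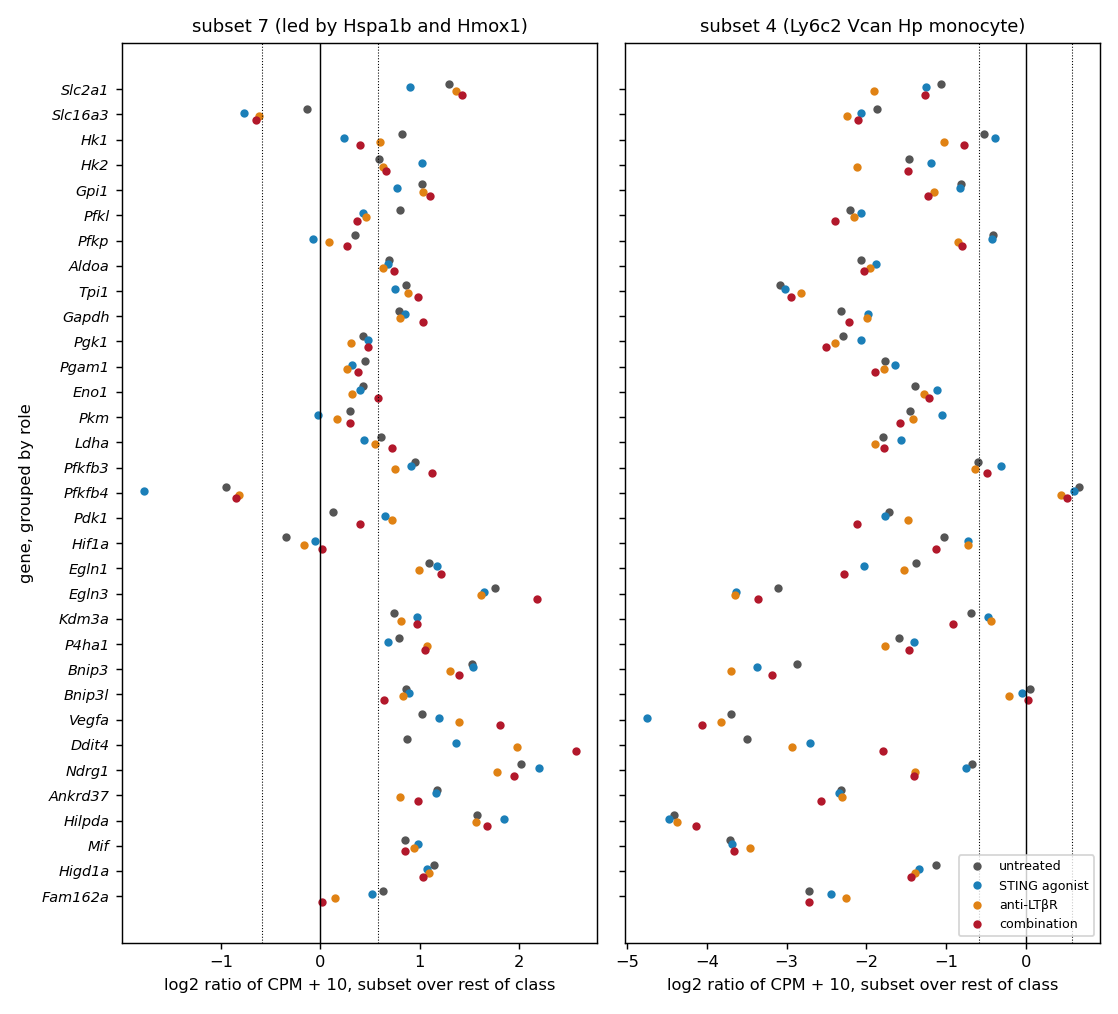
Log2 ratio of CPM + 10 (x axis) of subset 7 (left) and subset 4 (right) over the rest of macrophage- or monocyte-like cells for the 33 genes (y axis), 1 point per library (anti-LTβR is the LTbR agonist), with dotted lines at 1.5-fold. In subset 7, 20 genes lie to the right of the upper line in all 4 libraries, and in subset 4, 27 lie to the left of the lower line.

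Subset 4 was the reverse. It was named from the monocyte markers Ly6c2, Vcan and Hp, with Hp, the gene of haptoglobin, at 545 to 841 CPM and C1qa at 1.43 to 12.3 CPM. Ly6c2 stood at 1130, 1390, 1691 and 2809 CPM in it and at 2628, 2371, 1819 and 2562 CPM in subset 3, so that Ly6c2 alone did not set it apart. In subset 4, 27 of the 33 genes were lower than in the rest of the class by over 1.5-fold in all 4 libraries (background 6.75%). None was higher in all 4 (5.06%). Hilpda stood at 6.62, 7.13, 11.1 and 7.88 CPM in subset 4 and was lower by 17.6- to 22.3-fold, Vegfa by 13.03- to 27.0-fold, Mif by 11.02- to 13.1-fold and Bnip3 by 7.33- to 12.97-fold. Among the enzymes Tpi1 was farthest apart, at 78.5, 85.5, 87.4 and 76.5 CPM, lower by 7.098- to 8.48-fold. Bnip3l alone among the effectors was level, at 133, 124, 121 and 140 CPM. Pfkfb4 had its highest value of the 15 subsets in subset 4 in 3 libraries (76.6, 61.3, 48.2 and 51.8 CPM), while Pfkfb3 stood 1.24- to 1.56-fold below the rest there. The median depth of subset 4 was 7574 to 10190 UMIs.

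Other subsets were highest for particular genes. Subset 2, led by Timp1, an inhibitor of matrix proteases, was highest in all 4 libraries for Hif1a (890, 916, 929 and 979 CPM), Slc16a3 (436, 554, 502 and 516 CPM) and Pkm, which makes pyruvate (2008, 2721, 1969 and 1974 CPM). The exporter and Hif1a thus peaked in another subset than the effectors. Subset 11 was highest for Pfkfb3 (441.5, 413, 415 and 352 CPM) and lowest for Eno1, Ldha, Bnip3l and Higd1a, and its cells were shallow, with median UMIs of 2703 to 3900. The C1q- and Trem2-positive subset 0 held 321, 427, 450 and 383 CPM of Hilpda and the Mrc1-, Pf4- and Retnla-positive subset 8 held 67.3, 133, 125.5 and 260 CPM. Summed hypoxia effectors of subset 8 stood at 1457, 1250, 2127 and 3145 CPM, the first 2 values on 34 and 27 cells. Subset 0 went from 27.7% of the class in untreated tumours to 3.59% in the combination, while subset 8 went from 1.13% to 16.1%. Over the same libraries the summed effectors of the class went from 3606 to 3264 CPM.

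Across the 60 points, which share libraries and depth and are given as a description, summed hypoxia effectors rose and fell with the glycolytic enzymes. Pearson r between their log2 levels was 0.90 over all points and 0.86 to 0.92 over the 15 subsets within a library. It was 0.77 for 20 other hypoxia targets, 0.65 for the transporters, 0.62 for the oxygen-sensing genes and 0.53 for 17 other glycolysis genes. The genes of flux control had an r of 0.23, those of the tricarboxylic acid cycle and respiratory chain -0.12, the pentose phosphate pathway -0.28 and the rest of the HIF machinery -0.30. Glucocorticoid-responsive genes had an r of 0.49 (0.21 to 0.73 within libraries) and genes of the integrated stress response 0.34. Among genes outside all lists, the 10 most like the summed effectors were 4930430E12Rik (r 0.91), Cd9 (0.91), Mgarp (0.87), Bsg (0.86), Impa2 (0.86), Slc3a2 (0.85), H2-Q7 (0.85), Vdac1 (0.84), H2-Q6 (0.83) and Basp1 (0.83). Bsg encodes basigin, the chaperone of lactate transporters, Mgarp a mitochondrial protein and Vdac1 the pore of the outer mitochondrial membrane. Reads of H2-Q6 and H2-Q7, near-identical class I genes, can be split between them.

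The second question was how each treatment moved the 33 genes. Genes with at least 50 UMIs in either library of a comparison were kept, and every comparison shared the untreated library. In macrophage- or monocyte-like cells all 33 genes were kept and most values stayed close to untreated. With the STING agonist none of the 33 genes passed 1.5-fold in either direction, where 0.114% of 10508 genes were higher and 0.0571% lower. With the LTbR agonist 1 gene was higher (background 0.863%) and 1 lower (0.488%). With the combination none was higher (1.31%) and 1 was lower (0.872%). The median log2 ratio of the 33 genes was -0.00, 0.02 and -0.08 in these comparisons, and that of all genes kept was 0.01, 0.01 and 0.02.

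**Figure D4:**
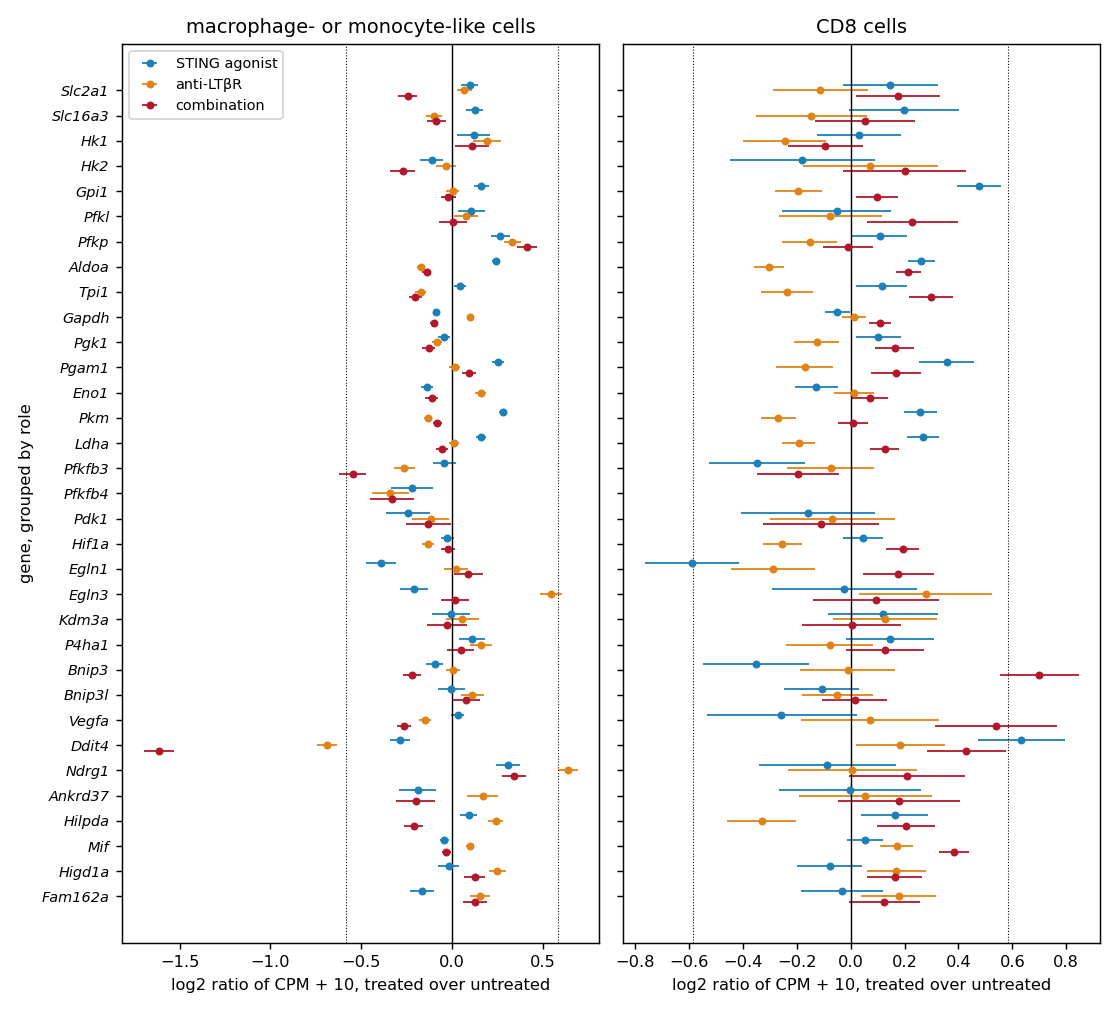
Log2 ratio of CPM + 10 of each treatment over untreated (x axis) for the 33 genes (y axis) in macrophage- or monocyte-like cells (left) and CD8 cells (right, without Pfkfb4), coloured by treatment (anti-LTβR is the LTbR agonist), with 95% counting intervals and dotted lines at 1.5-fold. In the left panel Ddit4 under the combination stands at -1.62 and every other gene under the combination lies within 1.5-fold.

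Ddit4, printed above with 1 match to each core, was lower in macrophage- or monocyte-like cells of every treated group. It stood at 274 CPM in macrophage- or monocyte-like cells of untreated tumours (interval 268 to 281), 223 with the STING agonist, 167 with the LTbR agonist and 82.8 with the combination (78.0 to 87.8). The log2 ratio to untreated was -0.29 (-0.34 to -0.23), -0.69 (-0.74 to -0.63) and -1.62 (-1.70 to -1.53). The combination was also below each agonist alone, at -1.33 against the STING agonist and -0.93 against the LTbR agonist, comparisons that share the combination library. No other of the 33 genes passed 1.5-fold between the combination and either agonist. Under 13 other ways of processing, the log2 ratio of the combination to untreated ranged from -1.78 to -1.25. Dendritic-like cells showed the same order, at 134, 102, 76.7 and 46.2 CPM. CD4 cells held 171, 209, 216 and 166 CPM, above untreated with either agonist alone. CD8 cells held 73.8, 120, 85.2 and 103 CPM, above untreated in each treated library. Neither class was below untreated by over 1.5-fold in the combination.

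The fall of Ddit4 ran through nearly all macrophage subsets. It was below untreated in the combination in all 14 subsets with at least 20 UMIs in either library and past 1.5-fold in 12 of them, with a median log2 ratio of -1.49. Subset 0 fell from 321 to 78.0 CPM and subset 5, which expressed the chemokine gene Cxcl9, from 360 to 93.7 CPM. Subset 7 was the exception, at 497, 565, 556 and 472 CPM, a log2 ratio of -0.07 (-0.32 to 0.17) in the combination. Subset 8 stood at -0.36 on 18 and 71 UMIs. In the monocytes of subset 4 Ddit4 was low in every library (16.1, 27.1, 14.8 and 18.0 CPM). Subset 10, subset 12 and subset 13 were also below untreated, on 9, 8 and 50 UMIs in the combination.

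**Figure D5:**
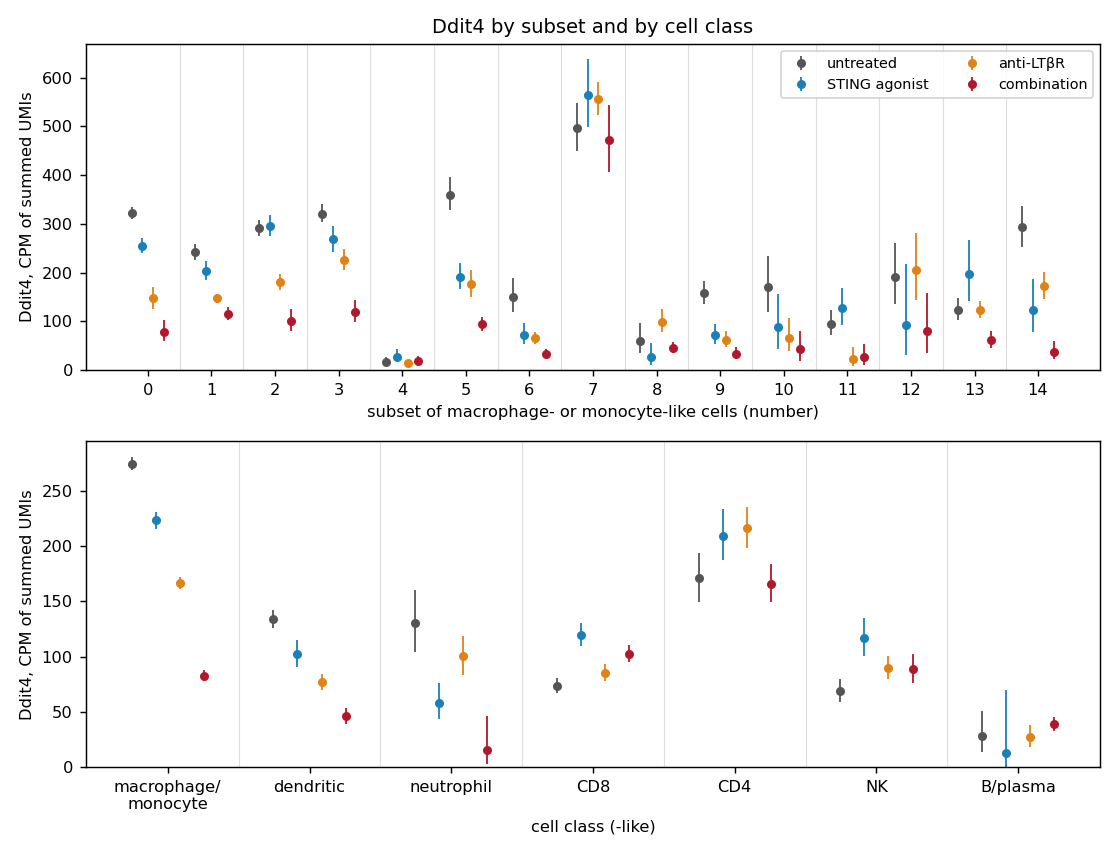
Level of Ddit4 in CPM (y axis) in the 15 macrophage and monocyte subsets (upper panel) and the 7 cell classes (lower panel), 1 point per library with its 95% counting interval, coloured by treatment (anti-LTβR is the LTbR agonist). Subset 7 stands between 472 and 565 CPM in all 4 libraries, while macrophage- or monocyte-like cells as a class go from 274 CPM in untreated to 82.8 CPM in combination tumours.

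Ddit4 is also a target of glucocorticoids and of the integrated stress response, besides HIF. In macrophage- or monocyte-like cells of the combination, 3 of 6 glucocorticoid-responsive genes were higher than untreated by over 1.5-fold and none lower: Fkbp5 by 1.22, Tsc22d3 by 0.95 and Klf9 by 0.73 on the log2 scale. None of the 6 genes of the integrated stress response that were kept passed 1.5-fold. In the list of dissociation and heat shock, 5 of 13 were higher, with Hspa1b at 1.12, Egr1 at 0.90 and Hsph1 at 0.71. The part of these pathways in the level of Ddit4 was not tested. In the combination none of the 14 other glycolysis genes kept, 15 other hypoxia targets, 5 HIF machinery genes, 6 pentose phosphate genes or 19 mitochondrial genes passed 1.5-fold in either direction, with list medians of -0.03, 0.06, 0.11, 0.17 and 0.16. Over all genes kept, 1.31% were higher and 0.872% lower.

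With the LTbR agonist, Ndrg1 was the gene that rose. It stood at 152, 190, 242 and 195 CPM in macrophage- or monocyte-like cells, a log2 ratio to untreated of 0.64 (0.58 to 0.69) with the LTbR agonist, just past 1.5-fold. Egln3 moved the same way, at 0.55 with the LTbR agonist and 0.02 with the combination. Of 15 other hypoxia targets kept, 2 were higher with the LTbR agonist (background 0.863% higher and 0.488% lower), Pgf, a growth factor of the VEGF family, by 0.98 and Adm, the vasodilator adrenomedullin, by 0.78. Subset 7 was 8.39% of the class in this library against 3.61% in untreated tumours, and without it the log2 ratio of Ndrg1 was 0.51, within 1.5-fold. Of 13 genes of dissociation and heat shock, 4 were higher and 1 lower in this comparison, among them Hspa1b and Hspa1a, which lead subset 7, at 2.42 and 2.05. Their part in the change of Ndrg1 was not tested. Fewer or more cells of a subset and a change within cells both enter these class values. By subset, Ndrg1 was above untreated in 11 of 14 subsets with the LTbR agonist and in 13 of 15 with the combination.

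Smaller changes in macrophage- or monocyte-like cells went in both directions. Pfkfb3 stood at 186, 181, 154 and 125 CPM, a log2 ratio of -0.54 in the combination, and was below untreated in 12 of 14 subsets. Pfkfb4 was below untreated in all 11 subsets counted, and the sum of Pfkfb3, Pfkfb4 and Pdk1 fell by 0.46 on the log2 scale. Pfkp went the other way, at 243, 295, 309 and 328 CPM, and was above untreated in 13 of 15 subsets in the combination. Vegfa stood at -0.26 and Slc2a1 at -0.24. Summed over all 13 glycolytic enzymes the class moved by 0.10, -0.01 and -0.08.

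CD8 cells of the combination held more of most of these genes by small amounts. Of 32 genes kept (Pfkfb4 had too few UMIs), 28 lay above 0, where 43.1% of 9074 genes did, and the median was 0.16 against -0.03 for all genes. Only Bnip3 passed 1.5-fold (background 0.551% higher and 1.12% lower), from 68.6 to 118 CPM, a log2 ratio of 0.70 (0.55 to 0.85). The summed hypoxia effectors rose from 1452 to 1813 CPM, a log2 ratio of 0.32 (0.28 to 0.36), and the enzymes by 0.13. In CD8 cells without any UMI of the macrophage genes C1qa, C1qb, C1qc or Csf1r, Bnip3 stood at 62.4, 50.9, 64.8 and 116 CPM. It was again highest in the combination. With the STING agonist, Ddit4 was higher at 0.63 (0.47 to 0.79, background 0.850%) and Egln1 lower at -0.59 (-0.76 to -0.42, background 1.10%). Of the 13 genes of dissociation and heat shock, 7 were higher and none lower in CD8 cells with the STING agonist (median 0.62), and 4 were higher and none lower with the combination (median 0.35). Their part in the changes of Ddit4 and Bnip3 was not tested. With the LTbR agonist no gene passed 1.5-fold (1.09% higher and 1.08% lower) and 20 of 32 lay below 0, where 49.6% of genes did.

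In NK-like cells with the STING agonist, of 27 genes kept, 2 were higher (background 1.98%) and none lower (1.70%), namely Hilpda, from 80.7 to 145 CPM with a log2 ratio of 0.77 (0.52 to 1.03), and Ddit4, from 69.0 to 117 CPM with 0.68 (0.41 to 0.95). The median of the 27 was 0.22 against 0.03 for all genes. In the same comparison 8 of 13 genes of dissociation and heat shock were higher and none lower (median 0.64), and their part in these changes was not tested. With the LTbR agonist none of 28 passed (0.468% and 0.880%), yet 24 lay below 0, where 57.6% of genes did. With the combination none of 27 passed (0.964% and 4.11%), and 20 lay above 0, where 42.2% of genes did. Slc16a3, Hk2, Pfkfb4, Egln3 and Ankrd37 had too few UMIs in each of these comparisons.

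Neutrophil-like cells gave the least certain values, because 68 to 382 shallow cells with median depths of 1942 to 2392 UMIs stood behind them. With the STING agonist 4 of 30 genes kept were lower (background 6.66%) and none higher (4.41%): Vegfa by -1.17, Ddit4 by -1.04, Bnip3 by -0.74 and Ndrg1 by -0.67. With the LTbR agonist 1 of 32, Vegfa at -0.65, was lower (3.90%) and none higher (7.31%). With the combination 4 of 30 were lower (10.0%), namely Ddit4, Pfkfb4, Pfkfb3 and Hk2 at -2.43, -0.83, -0.75 and -0.61, and 2 higher (6.83%), Hilpda at 0.79 and Fam162a at 0.64. The Ddit4 value rested on 3 UMIs, with an interval of -3.44 to -1.27, and the intervals of Hk2 and Pfkfb4 included 0. Csf1r stood at 204, 127, 217 and 240 CPM in neutrophil-like cells and C1qa at 65.0, 8.91, 19.3 and 0 CPM. Leaving out cells with Csf1r may thus remove neutrophils as well as cells with macrophage RNA, which was not tested. The share of neutrophil-like cells without any UMI of C1qa, C1qb, C1qc or Csf1r was 70.9%, 76.3%, 71.5% and 77.9%. In these cells Vegfa stood at 135, 105, 141 and 250 CPM in place of 282, 120, 177 and 245, and none of the 33 genes with enough UMIs was lower by over 1.5-fold with the STING agonist or the combination. Ddit4 then had 18 UMIs in untreated and 1 in the combination library and was not kept. Markers of macrophages and monocytes summed to 2777, 2061, 3769 and 6275 CPM in neutrophil-like cells, and their part in these changes was not tested further. Slc16a3 stayed highest in neutrophil-like cells without those UMIs, at 787, 774, 605 and 739 CPM.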

How the data were processed

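Single-cell RNA from live CD45+ cells of KPC tumours was counted by the authors with Cell Ranger 7.1.0 against mm10, per the labels, and deposited as a matrix of raw UMI counts (32285 genes by 24839 barcodes) that holds all 4 libraries. The library of each barcode was read from its suffix. One of 2 gene identifiers for Aldoa, with 56 UMIs, was not used.

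Cells with 300 to 5000 genes and at most 6% mitochondrial UMIs were kept, and doublets were kept (Scrublet scored 1.95% to 3.60% of cells per library at 0.2 or more). Counts were normalised per cell, and 2000 variable genes, without the 33 genes and the pathway lists, gave 30 principal components, 20 neighbours and Leiden clusters at resolution 1 (scanpy 1.11.5, leidenalg 0.10.2). A cluster was named from marker lists when at least 3 markers were detected and its 10 leading genes did not favour another list, with limits set after the clusters were seen. These names were rebuilt from the counts, and where values differ from the study's the naming may be why. Macrophage- or monocyte-like cells were clustered again in the same way.

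UMIs were summed per class and library. A log2 ratio compares CPM + 10, a gene was kept with at least 50 UMIs in either library, and a change was counted past 1.5-fold (0.58 on the log2 scale). For the highest class, genes needed 50 UMIs over all 7 classes in each library, and for subsets 50 UMIs in the class in each library, which all 33 genes had. Intervals at 95% are exact Poisson for levels, combined from the exact Poisson limits of both libraries for ratios, and exact binomial for shares of cells. With 1 library per group no test was run. The ratios were checked on simulated counts. The genes named are the 33, those past 1.5-fold in the pathway lists (at most 3 a list) and the 10 genes whose levels were most like the summed hypoxia effectors, and a few markers. The 33 genes and all lists were chosen with earlier results of these data known. Promoter windows came from RefSeq (GRCm38.p6) and exons from the GENCODE annotation. Python 3.11.15, numpy 2.4.6, pandas 2.3.3, scipy 1.17.1 and matplotlib 3.10.9 were used.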

Additional observations from a re-analysis of the deposited data

Results flagged for a closer look

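Ddit4 with the STING agonist went in opposite directions between cell classes. The log2 ratio to untreated was -1.04 in neutrophil-like cells (52 and 88 UMIs), 0.63 in CD8 cells and 0.68 in NK-like cells, each with 1 library per group, and the difference was not tested. In the same comparisons 7 of 13 genes of dissociation and heat shock were higher in CD8 cells (median 0.62), 8 of 13 in NK-like cells (median 0.64) and 1 of 12 kept in neutrophil-like cells (median 0.16), and their part in the values of Ddit4 was not tested. In neutrophil-like cells without a UMI of C1qa, C1qb, C1qc or Csf1r the ratio was 0.0058.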

How the results depend on the processing

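No paired analysis was possible because each group had 1 library, and no library could be left out for the same reason. Of 180 counts of genes past 1.5-fold recomputed under another setting, 159 stayed within 1.5 times and 21 moved. A count of 0 that stayed at 0 was among those that stayed. The share of all genes past 1.5-fold was not computed under these settings, so the counts have no background beside them. Of 1351 log2 ratios of single genes, 1211 stayed within their interval, 135 moved and 5 reversed. These included ratios within 1.5-fold in the main setting. For ratios past 1.5-fold there, 78 of 103 recomputed values were still past it in the same direction. Settings that left out subset 7 or cells with a UMI of C1qa, C1qb, C1qc or Csf1r were chosen after seeing the data. In macrophage- or monocyte-like cells with the LTbR agonist the 1 gene higher (Ndrg1) went to 0 with a pseudocount of 50 CPM, with the same weight for each subset, with classes from the summed marker level and without subset 7, and the 1 gene lower (Ddit4) to 0 with a pseudocount of 50 CPM. With the combination the count lower went from 1 to 2, adding Pfkfb3, for the mean over cells and for classes from the marker level. In neutrophil-like cells without a UMI of C1qa, C1qb, C1qc or Csf1r, the STING agonist gave 1 gene higher and 0 lower. The LTbR agonist gave 4 higher, and the combination 1 higher and 0 lower. The ratios that reversed there were Bnip3 (0.10) and Ddit4 (0.0058) with the STING agonist, Vegfa (0.057) with the LTbR agonist, and Hk2 (0.58) and Pfkfb3 (0.24) with the combination. Without cells scored as doublets the LTbR agonist gave 1 higher. A pseudocount of 50 CPM gave 0 lower with the LTbR agonist, and 1 higher and 2 lower with the combination. In CD8 cells that pseudocount left 0 higher and 0 lower with the STING agonist and 0 higher with the combination, and in NK-like cells 0 higher with the STING agonist. With at least 20 UMIs in place of 50, 1 gene, Egln3, was higher in NK-like cells of the combination. A larger pseudocount shrinks every ratio by its construction, and the cause of the other moves was not tested. Depth limits the neutrophil-like values too, since the combination library held 187879 UMIs of these cells.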

Other observations

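In dendritic-like cells of the combination the log2 ratio to untreated was -1.36 (-1.56 to -1.16) for Ddit4 and 0.63 (0.52 to 0.75) for Vegfa, while Vegfa in macrophage- or monocyte-like cells stood at -0.26. With the LTbR agonist dendritic-like cells held Ddit4 at -0.73 and Egln3 at 0.67 (0.47 to 0.88). In CD4 cells of the combination Hilpda stood at 273 against 148 CPM, a log2 ratio of 0.84 (0.62 to 1.06), and Hk2 at 47.5 against 27.5 CPM. Egln1 stood at -0.72 (-1.02 to -0.42) in CD4 cells with the STING agonist, next to -0.59 in CD8 cells, and these comparisons share the untreated library.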
